A study of Homo sapiens with 24 samples.

Results

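The SLC39A genes encode the ZIP transporters, the proteins that carry zinc into the cytosol. Members were the rows of the raw count table whose gene name was SLC39A1, SLC39A4, SLC39A6, SLC39A7, SLC39A8, SLC39A9, SLC39A10, SLC39A11, SLC39A13 or SLC39A14. All 10 were found among 58051 genes, and all 10 passed the filter on low counts that left 18852 genes for testing. The cells were neurons differentiated from LUHMES, an immortalised line of human mesencephalic precursors, with tetracycline, cyclic AMP and GDNF in every group, and they were exposed for 6 h in wells that all held DMSO. Of the 7 toxicant groups, 3 received a dose of 5 µM, namely MS275, which blocks class I histone deacetylases, paraquat and MPP. Ziram, a fungicide that carries zinc bound to dithiocarbamate, was given at 2 µM, rotenone, which blocks complex I of the respiratory chain, and 6-HD (6-hydroxydopamine) at 1 µM each, and methylmercury at 0.5 µM. The vehicle group received 1% DMSO alone. Each of the 8 groups had 3 libraries of polyadenylated RNA, all from a single cell line. The labels count them as 24 biological samples but do not say whether the 3 of a group were cultured on separate days, so p-values measure the spread between these samples, which may be partly technical.

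ZIP proteins work against the SLC30A (ZnT) family, which moves zinc out of the cytosol, and against the metallothioneins, which bind it. ZIP6 (SLC39A6) and ZIP10 (SLC39A10) sit at the cell surface and can form a joint complex, ZIP7 (SLC39A7) releases zinc from the endoplasmic reticulum, and ZIP8 (SLC39A8) and ZIP14 (SLC39A14) also carry manganese and iron. The metal-sensing factor MTF1 binds metal response elements in DNA when zinc is plentiful, switches on metallothioneins and SLC30A1, and in mouse and zebrafish has been reported to hold down the gene for ZIP10. Loss of ZIP14 in people causes manganese build-up with dystonia and parkinsonism, and SLC39A14 is therefore often studied in relation to dopaminergic circuits.

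Library totals ranged from 9.69 to 46.9 megareads counted to genes, and ziram libraries were among the deepest, with 29.5 to 46.9 megareads against 14.3 to 33.4 in DMSO. CPM stands for a gene's counts per megaread of the library total after scaling by the trimmed mean of M values (TMM), and is given as mean ± SD over 3 libraries. All 12 pan-neuronal markers reached 1 CPM in DMSO, whereas 7 of 12 dopaminergic markers did, and LMX1A and FOXA2 had 0 counts there. All 10 cycling cell markers also reached 1 CPM in DMSO. In bulk RNA, fewer cells that express a gene and less RNA of it per cell cannot be told apart. The lowest correlations of log2 CPM between libraries of the same group were 0.954 in rotenone and 0.955 in 6-HD.

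In DMSO neurons, the cell-surface importer SLC39A6 had the highest level per length of annotated exon, 118 ± 2.83 CPM per kb. Its partner SLC39A10 followed with 40.7 ± 0.632 CPM per kb, and SLC39A7, the importer of the endoplasmic reticulum, had 38.9 ± 2.01 CPM per kb. The libraries of SLC39A10 and SLC39A7 overlapped, and no other neighbours in the order did. SLC39A9, whose product lies in the Golgi and is also known as a membrane androgen receptor, had 30.3 ± 0.523 CPM per kb. SLC39A14 had 17.3 ± 0.71, SLC39A1, a broadly expressed importer of the cell surface, 13.3 ± 0.449, and SLC39A13, an importer of the early secretory pathway, 10.2 ± 0.852 CPM per kb. The place of SLC39A1 in this order is less certain, as 60.8% of its annotated exon bases are shared with another gene on its strand. The lower end was held by SLC39A11 with 4.58 ± 0.248, SLC39A8 with 1.28 ± 0.149 and SLC39A4, the importer of dietary zinc in the gut, with 0.553 ± 0.0354 CPM per kb. SLC39A6 thus stood above 98.6% of the tested genes with a known exon length, and SLC39A4 above 26.3% of them. Of the other SLC39A genes in the table, SLC39A3 had 47.5 ± 1.91 CPM and SLC39A5 1.81 ± 0.263 CPM in DMSO, while SLC39A2 and SLC39A12 had 13 and 3 counts over all 24 libraries and were not tested. SLC39A5 was lower in MPP, with 0.519 ± 0.175 CPM in MPP and 1.81 ± 0.263 CPM in DMSO (edgeR adjusted p = 0.00686).

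**Figure D1:**
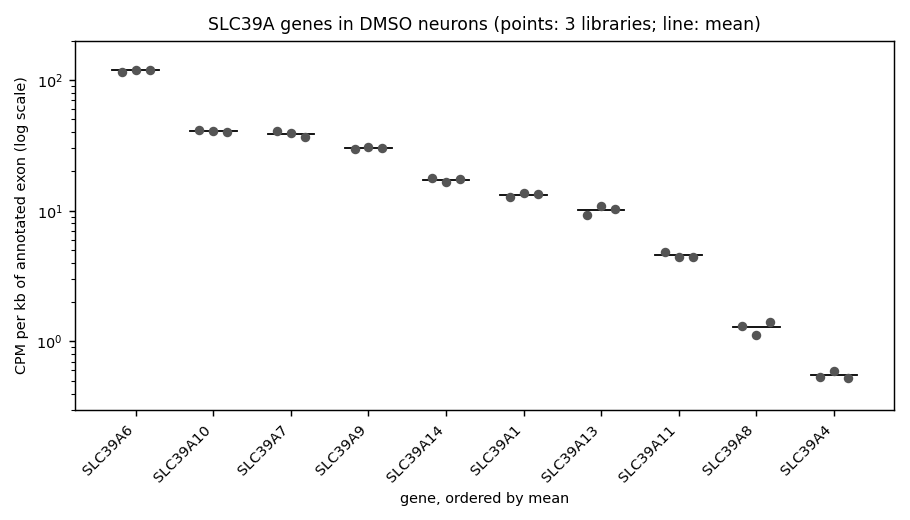
Level of each SLC39A gene in the 3 DMSO libraries (points) and their mean (line), in CPM per kb of annotated exon on a log scale, ordered by mean. SLC39A6 lies highest at 118 CPM per kb and SLC39A4 lowest at 0.553 CPM per kb, and the points of SLC39A10 and SLC39A7 overlap.

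Summed over the 10 members per length, the level was 225 ± 5.32 CPM per kb in MS275 and 237 ± 6.49 CPM per kb in ziram, against 276 ± 2.47 CPM per kb in DMSO. The mean sums of the other 5 toxicants lay between 267 and 277 CPM per kb. The make-up of the sum differed too: SLC39A6 held 30.8 ± 2.59% of it in MS275 and 43 ± 0.76% in DMSO, while SLC39A14 held 15.3 ± 0.849% in MS275 and 6.28 ± 0.312% in DMSO. In ziram it was SLC39A10 whose share was small, 9.6 ± 0.692% against 14.8 ± 0.322% in DMSO. These sums and shares are descriptions without a test.

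Differences from DMSO were tested with edgeR's quasi-likelihood method in a single fit of all 24 libraries, with Benjamini-Hochberg adjustment over all 18852 genes, and a gene was called at an adjusted p under 0.05. In MS275, 2 members were higher, 3 were lower and 5 were not called, where 43.2% of all genes were called (20.1% higher and 23% lower). The split over all genes was 3798 higher and 4338 lower, and 3932 and 4116 with library totals. It was 4257 and 3772 with the authors' deposited factors and 4527 and 3918 with DESeq2. Which direction held more genes thus depended on the scaling. In MPP, 1 member was higher and 1 lower, against 10.8% of all genes called (5.77% higher and 5.02% lower), and in rotenone 1 was higher, against 5.52% (2.76% higher and 2.76% lower). With library totals in place of TMM, the split over all genes in MPP was 592 higher and 1564 lower, against 1088 higher and 946 lower. In ziram 1 member was lower, where 0.53% of all genes were called and 0.122% were lower; the split was 77 higher and 23 lower, 102 and 13 with library totals, and 363 and 223 with ziram and DMSO fitted alone. Paraquat, 6-HD and methylmercury called 0 members by edgeR, where the shares of all genes called were 0%, 0.0106% and 0.286% (0.223% higher and 0.0637% lower in methylmercury). DESeq2 and limma-voom also called 0 members in these 3 comparisons, and at an unadjusted p under 0.05 there were 0 members in paraquat, 0 in 6-HD and 1 in methylmercury (SLC39A4). All 7 comparisons share the DMSO libraries.

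A test of any difference among the 8 groups called 9 of the 10 members, all but SLC39A8 (adjusted p = 0.123), where 55.3% of all genes were called. The median change of the 10 members on the log2 scale was -0.13 in MS275, against 0.04 over all tested genes, and in the other 6 toxicants it lay between -0.05 and 0.01. With 5 of the 10 members called, MS275 was near its share among all genes (43.2%). In ziram 1 of the 10 was called, among 100 genes, and the median log2 change of the 10 was -0.04. With ziram and DMSO fitted alone, 2 of the 10 were called, among 586 genes.

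**Figure D2:**
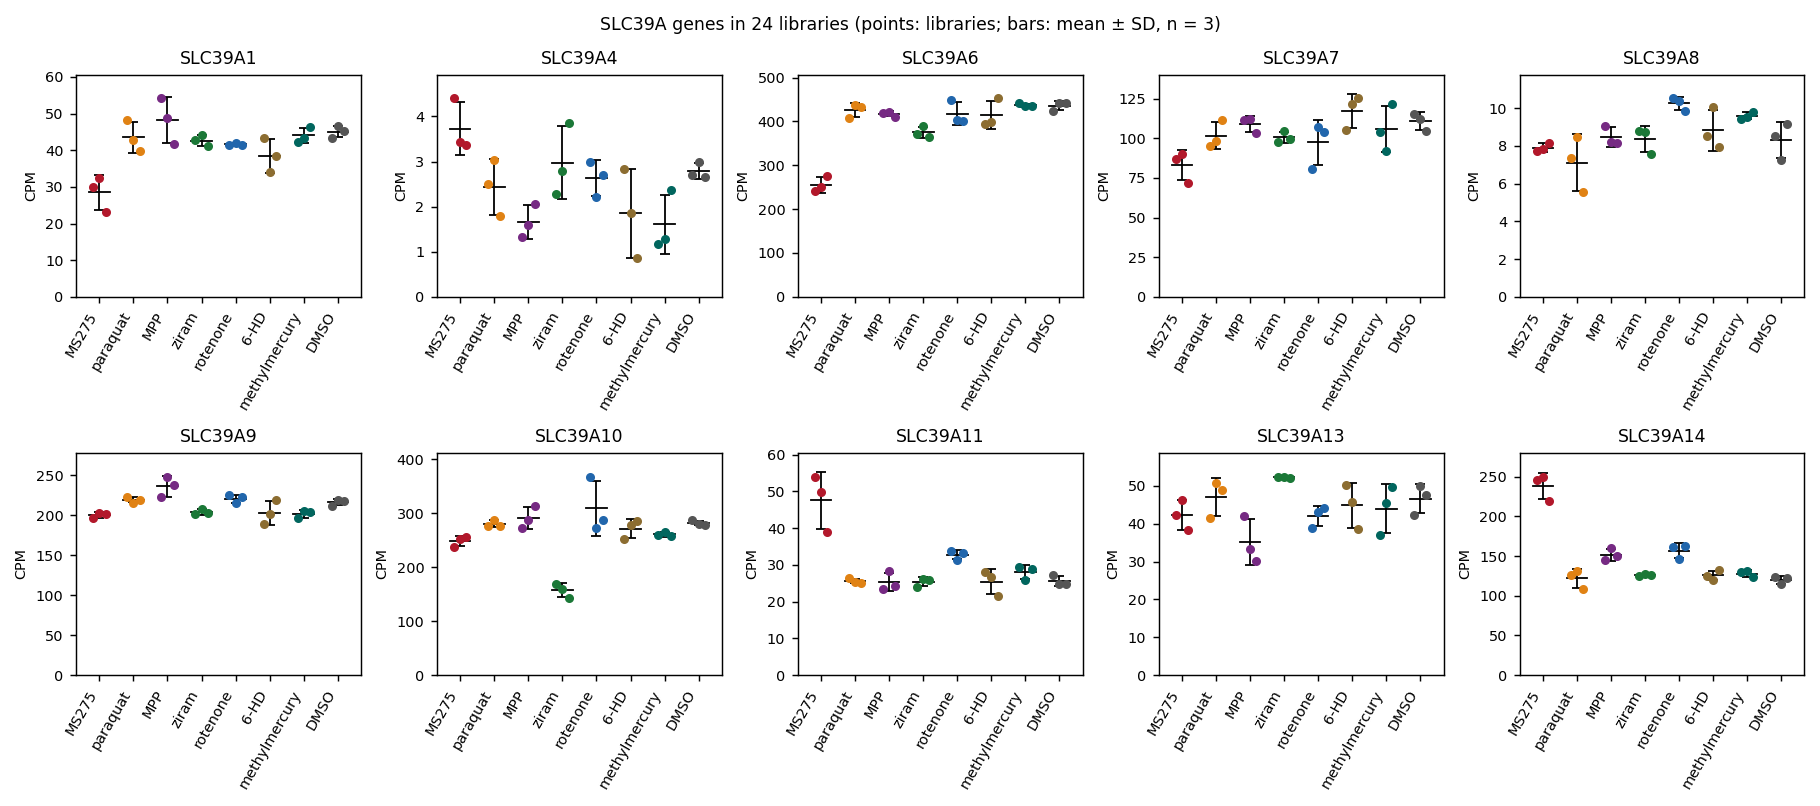
Level of the 10 SLC39A genes in CPM in each of the 24 libraries (points), with the mean and SD of each group (lines, n = 3). The 3 ziram libraries of SLC39A10 (144 to 169 CPM) lie below every other library, and the 3 MS275 libraries of SLC39A14 (219 to 250 CPM) above every other library.

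**Figure D3:**
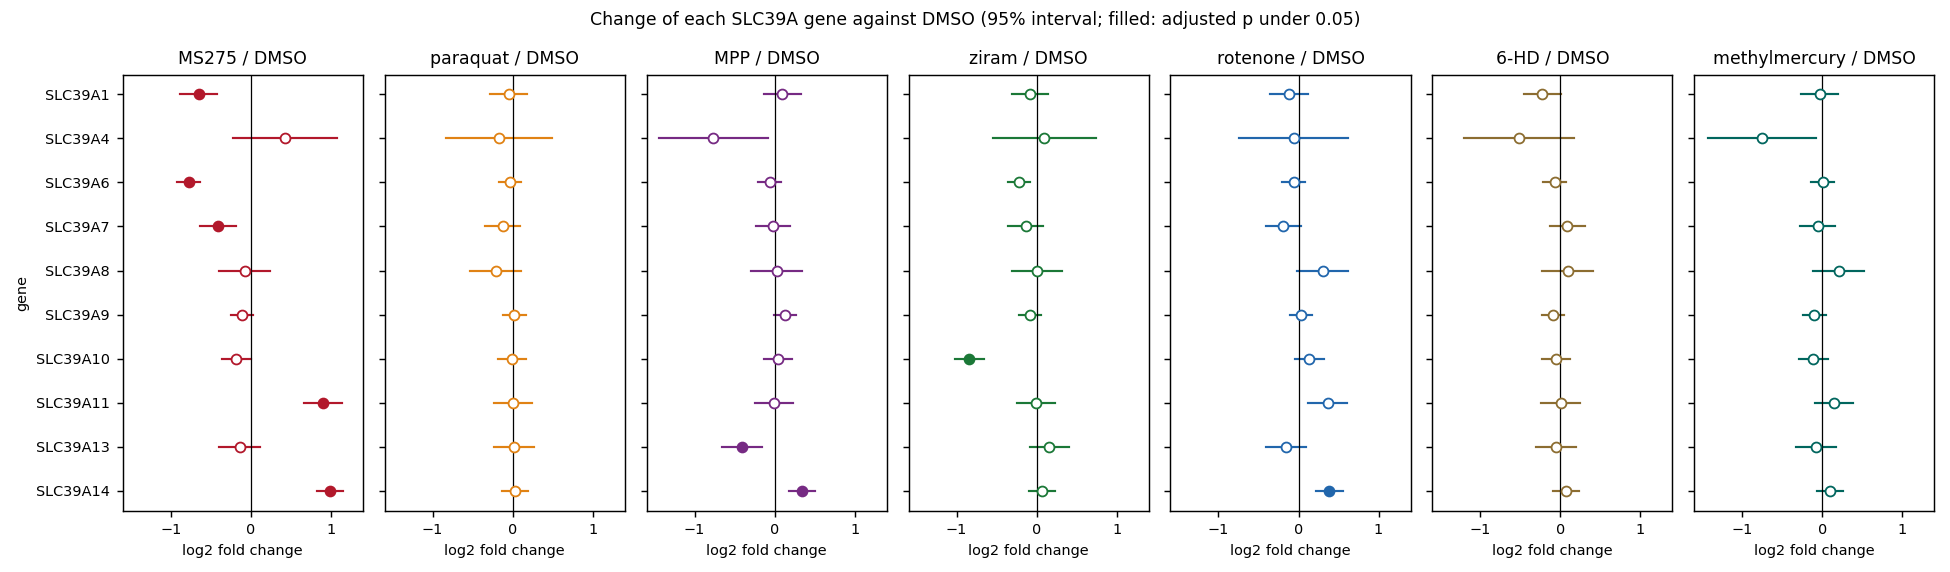
Log2 fold change of each SLC39A gene in each toxicant against DMSO, with its 95% interval; filled points have an edgeR adjusted p under 0.05. MS275 has 5 filled points, MPP 2, ziram and rotenone 1 each, and the widest intervals belong to SLC39A4.

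SLC39A10, the gene for the cell-surface importer ZIP10, fell in neurons exposed to the zinc-bearing fungicide ziram. Its level was 169, 160 and 144 CPM in the ziram libraries, against 287, 280 and 278 CPM in the DMSO libraries. The groups did not overlap, and the highest ziram library lay below the lowest library of every other group. The ratio of ziram to DMSO was 0.559, a log2 change of -0.84 ± 0.09 (SE; 95% interval -1.02 to -0.66; edgeR adjusted p = 1.64e-07). Among the 23 genes that were lower in ziram, SLC39A10 had the second largest change, and it ranked 13 by p among the 100 called. With ziram and DMSO fitted alone, 586 genes were called in place of 100 and SLC39A10 stayed among them (adjusted p = 1.22e-09). With any 1 library of either group left out, the log2 change lay between -0.89 and -0.78. The part of the greater depth of the ziram libraries in this result was not tested.

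No other toxicant moved SLC39A10 past the threshold. It had 238, 253 and 256 CPM in MS275 (edgeR adjusted p = 0.0959), where all 3 libraries lay below those of DMSO. In rotenone the libraries had 367, 272 and 287 CPM, of which the first stood above all 23 others, and the adjusted p was 0.414. Group means in paraquat, MPP, 6-HD and methylmercury ranged from 261 to 291 CPM. Ordered by mean, rotenone, MPP, DMSO, paraquat, 6-HD and methylmercury overlapped each with the next, while MS275 lay apart below methylmercury and ziram apart below MS275; the lowest 6-HD library (251 CPM) was inside the range of MS275.

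Metal response elements are the DNA letters that MTF1 reads, so promoter windows from RefSeq (GRCh38.p14, 250 bases before to 50 after a start) were searched on both strands for the element's core, spelled TGCACNC or TGCGCNC. Of the 8 members whose windows were read, 5 held a match, in 5 of their 14 windows; over all genes, 10377 of 35116 windows (29.6%) did. Positions are given for the printed stretch, which holds the match and 10 bases on each side. The stretch of SLC39A10 lies at chr2:195657249-195657275 on the plus strand. Its match begins at base 34 from the RefSeq start of its window. The stretches of SLC39A6 (chr18:36129341-36129367), SLC39A1 (chr1:153963757-153963783) and SLC39A8 (chr4:102345585-102345611) are read on the minus strand. That of SLC39A13 (chr11:47408405-47408431) is on the plus strand, and these 4 stretches all lie before the start. The core is in capitals. Of these 5 members SLC39A10 was called lower in ziram and the other 4 were not called there. SLC39A7, SLC39A9 and SLC39A11 held no match and were not called there either.
SLC39A10: ggagaggagaTGCACACggcactcgag
SLC39A6: cccgcggcgcTGCGCGCggcggtaatt
SLC39A1: cctccacagaTGCGCCCcagggcccca
SLC39A8: ccggcggtccTGCGCCCcggcgtggac
SLC39A13: caaacggaagTGCGCCCtctacccggg
The SLC39A10 match has the TGCACNC form and the other 4 the TGCGCNC form. The share of all windows was counted for both forms together, and a link of form or position with the change in ziram was not tested. Such a match describes letters in the window and not a bound site. The endoplasmic reticulum stress element, searched in the same way, was in 0 of the 14 windows and in 27 of all windows (0.0769%).

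SLC39A6, the partner of SLC39A10 and the most abundant member per length, fell in MS275. Its level was 241, 250 and 275 CPM in MS275, against 424, 443 and 441 CPM in DMSO. The groups were far apart, with a ratio of 0.585 and a log2 change of -0.77 ± 0.07 (SE; edgeR adjusted p = 4.52e-10). In ziram SLC39A6 had 370, 389 and 365 CPM, all below the DMSO libraries, with a log2 change of -0.22 ± 0.07 that did not pass the adjustment over all genes (adjusted p = 0.271). When ziram and DMSO were fitted alone, that adjusted p was 0.0196. Group means in the other 5 toxicants were 415 to 437 CPM.

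SLC39A14, which carries manganese and iron as well as zinc, was higher in MS275, in MPP and in rotenone. MS275 libraries had 246, 250 and 219 CPM, rotenone libraries 161, 146 and 163 CPM and MPP libraries 145, 160 and 150 CPM, against 124, 114 and 122 CPM in DMSO. Every library of these 3 groups lay above every DMSO library. The change was 1.99-fold in MS275 (log2 0.99 ± 0.08, SE; edgeR adjusted p = 5.27e-11), 1.31-fold in rotenone (log2 0.39 ± 0.08; adjusted p = 0.00318) and 1.26-fold in MPP (log2 0.34 ± 0.08; adjusted p = 0.00532). With rotenone and DMSO fitted alone, the adjusted p in rotenone was 0.0645. The group means of rotenone and MPP, 157 and 152 CPM, overlapped in their libraries. Paraquat, ziram, 6-HD and methylmercury had means of 122 to 128 CPM, with adjusted p from 0.72 to 1.

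The ratio of SLC39A14 to SLC39A6 per length was 0.498 ± 0.066 in MS275 and 0.146 ± 0.00877 in DMSO. It was 0.193 ± 0.00932 in MPP and 0.2 ± 0.014 in rotenone, and the means in the other 4 toxicants were 0.152 to 0.179. These ratios have no test of their own.

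SLC39A8, the close relative of SLC39A14 that carries the same metals and cadmium, was not called in any comparison. Its libraries had 10.5, 10.4 and 9.84 CPM in rotenone, against 8.54, 7.27 and 9.17 CPM in DMSO, and these groups did not overlap. The log2 difference in rotenone was 0.30 ± 0.16 (SE; 95% interval -0.02 to 0.62; edgeR adjusted p = 0.288), so a change of that size could not be told from the spread at 83 to 423 counts per library. Its group means ran from 7.12 CPM in paraquat to 10.3 CPM in rotenone.

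Among the importers of inner membranes, SLC39A11, found in the Golgi and other inner compartments, rose in MS275 and SLC39A7 fell. SLC39A11 had 54, 49.8 and 38.9 CPM in MS275, against 27.2, 24.8 and 24.7 CPM in DMSO, a 1.87-fold difference (log2 0.90 ± 0.12, SE; edgeR adjusted p = 2.22e-07). In rotenone it had 33.8, 31.3 and 33.3 CPM, above all DMSO libraries, with a log2 difference of 0.36 ± 0.12 that missed the threshold (adjusted p = 0.0655) and passed it with DESeq2 (adjusted p = 0.0234). SLC39A7 had 87.2, 90.2 and 72 CPM in MS275, against 115, 112 and 104 CPM in DMSO (log2 -0.41 ± 0.11; adjusted p = 0.0026). The MS275 libraries of SLC39A7 all lay below those of DMSO but overlapped those of rotenone, where 1 library had 80.9 CPM.

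SLC39A13, whose loss causes a form of Ehlers-Danlos syndrome, was lower in MPP. It had 42, 33.5 and 30.3 CPM in MPP, against 42.3, 49.9 and 47.7 CPM in DMSO. The groups came within 1 CPM of each other, and the log2 change was -0.40 ± 0.12 (SE; edgeR adjusted p = 0.0304). This call did not hold without MPP replicate 2 (adjusted p = 0.136) or 3 (0.185), or without DMSO replicate 2 (0.143) or 3 (0.0953). In ziram SLC39A13 had 52.3, 52.5 and 52.1 CPM, above every DMSO library, with an adjusted p of 0.938. SLC39A9 varied least of the 10, with group means from 200 CPM in MS275 to 236 CPM in MPP, a ratio of 1.18. It was called in none of the comparisons with DMSO, although all 3 MPP libraries (223, 248 and 238 CPM) lay above the DMSO libraries (212, 219 and 217 CPM; adjusted p = 0.249).

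The remaining importers of the cell surface are SLC39A1 and SLC39A4. SLC39A1 fell in MS275, with 29.9, 32.5 and 23.2 CPM against 43.5, 46.5 and 45.3 CPM in DMSO (log2 -0.65 ± 0.11, SE; edgeR adjusted p = 2.9e-05). In the other toxicants its mean was 38.5 to 48.2 CPM. In the annotation used here, 60.8% of the exon bases of SLC39A1 are shared with AL358472.7 on the same strand, a gene not analysed here, so its counts may hold or lack reads of that gene. SLC39A4 had 9 to 139 counts per library. Its level was 4.4, 3.43 and 3.36 CPM in MS275, 1.32, 1.59 and 2.06 CPM in MPP and 1.17, 1.28 and 2.37 CPM in methylmercury, against 2.7, 2.99 and 2.66 CPM in DMSO. None of these 3 groups overlapped DMSO, yet the edgeR adjusted p was 0.299 in MS275, 0.144 in MPP (0.0353 with MPP and DMSO fitted alone) and 0.367 in methylmercury, and the 95% interval in methylmercury ran from -1.44 to -0.08 on the log2 scale.

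The genes are spread over 9 chromosomes of GRCh38 in GENCODE 29, each as a protein-coding gene. SLC39A1 lies at chr1:153959099-153968184 (minus strand), SLC39A10 at chr2:195575977-195737702 (plus) and SLC39A8 at chr4:102251041-102431258 (minus). SLC39A7 lies at chr6:33200445-33204439 (plus), SLC39A13 at chr11:47407132-47416501 (plus) and SLC39A9 at chr14:69398015-69462388 (plus). SLC39A11 lies at chr17:72645949-73092712 (minus) and SLC39A6 at chr18:36108532-36129385 (minus), and SLC39A4 and SLC39A14 are both on chromosome 8. The strand setting of the counting is not given in the sources used here, and exon bases are shared with a gene on the opposite strand for 8.58% of SLC39A7 (with RXRB), 8.26% of SLC39A1 (with CREB3L4), 5.23% of SLC39A9 (with ERH) and 3.58% of SLC39A4 (with AC233992.3). SLC39A8 shares 3.04% with AC098487.1 on its own strand. SLC39A6, SLC39A10, SLC39A11, SLC39A13 and SLC39A14 had no shared exon bases.

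The next comparisons leave out the DMSO libraries. Against the mean of the other 6 toxicants, MS275 called 3 members higher and 3 lower, where 56% of all genes were called. The 5 members called against DMSO were among them, with SLC39A14 at log2 0.83 ± 0.06 (SE), SLC39A11 at 0.82 ± 0.08, SLC39A6 at -0.70 ± 0.06, SLC39A1 at -0.58 ± 0.09 and SLC39A7 at -0.33 ± 0.08. SLC39A4 was the sixth, with 3.73 ± 0.583 CPM in MS275 and 2.2 CPM over the other toxicants (log2 0.79 ± 0.23; edgeR adjusted p = 0.00495), although the libraries overlapped. That call did not hold without MS275 replicate 1 (adjusted p = 0.0559).

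Ziram against the mean of the other 6 toxicants, a contrast added after the ziram values of SLC39A10 were seen, called 2 members lower, where 4.05% of all genes were called (1.87% lower). The split over all genes was 411 higher and 352 lower, and with library totals 703 higher and 182 lower, where 1 member was called higher (SLC39A13) and 1 lower (SLC39A10). SLC39A10 had 157 ± 12.7 CPM in ziram and 277 CPM over the other toxicants (log2 -0.81 ± 0.07, SE; edgeR adjusted p = 2.03e-09), with no overlap. SLC39A14 was also called lower (log2 -0.25 ± 0.06; adjusted p = 0.0194), and there the other toxicants include MS275, MPP and rotenone, in which it was higher than in DMSO. Without any 1 ziram library this second call did not hold (adjusted p from 0.108 to 0.16), nor with library totals in place of TMM (0.0827) or with no filter on low counts (0.0711). SLC39A13 had 52.3 ± 0.207 CPM in ziram and 42.6 CPM over the other toxicants, with no overlap, and narrowly missed the threshold (log2 0.30 ± 0.09; adjusted p = 0.0562), which it passed with DESeq2 (0.0315), limma-voom (0.0203), library totals (0.0208) and no filter (0.0185).

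MPP and paraquat are both N-methylated pyridinium ions, MPP with a single ring of this kind joined to a phenyl group and paraquat with a pair of them, and both were given at 5 µM for 6 h. Of the 10 members, 1 was higher and 1 lower in MPP than in paraquat, where 11% of all genes were called (6.04% higher and 4.94% lower). With library totals the split over all genes was 579 higher and 1608 lower, against 1139 higher and 931 lower. SLC39A14 had 152 ± 7.78 CPM in MPP and 122 ± 12.1 CPM in paraquat, a 1.24-fold difference (log2 0.31 ± 0.08, SE; edgeR adjusted p = 0.00985) without overlap, and the call did not hold with library totals (adjusted p = 0.0839), without MPP replicate 2 (0.0723) or without paraquat replicate 3 (0.103). SLC39A13 had 35.3 ± 6.08 CPM in MPP and 47.1 ± 4.95 CPM in paraquat (log2 -0.42 ± 0.12; adjusted p = 0.0252), with 1 MPP library inside the range of paraquat. That call did not hold without MPP replicate 2 (0.119) or 3 (0.162) or without paraquat replicate 2 (0.126) or 3 (0.0921). For the other 8 members no difference between these compounds passed the test; among them the 95% interval was narrowest for SLC39A9, -0.03 to 0.24 on the log2 scale, and widest for SLC39A4, -1.28 to 0.08.

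**Figure D4:**
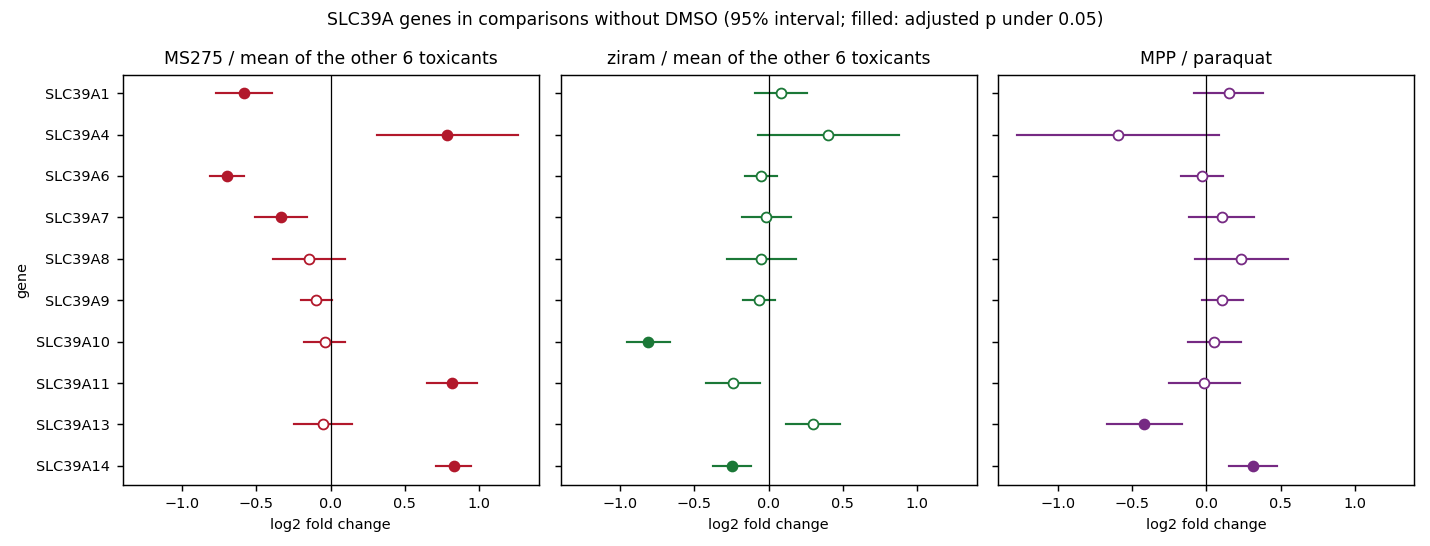
Log2 fold change of each SLC39A gene, with its 95% interval, for MS275 and for ziram against the mean of the other 6 toxicants and for MPP against paraquat; filled points have an edgeR adjusted p under 0.05. SLC39A10 is the lowest point of the ziram panel at -0.81, and SLC39A14 the highest filled point of the MS275 panel at 0.83.

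The other side of zinc handling was read from lists of related genes. Of 9 tested zinc exporters, 2 rose in ziram, where 0.408% of all genes were higher. SLC30A1, which sends zinc out across the cell surface, had 89.4 ± 1.49 CPM in ziram and 25.5 ± 2.05 CPM in DMSO (edgeR adjusted p = 1.05e-10). SLC30A2, which loads zinc into vesicles, had 16.8 ± 2.88 CPM in ziram and 0.869 ± 0.209 CPM in DMSO (adjusted p = 1.81e-08). The same pair was higher in methylmercury, where no SLC39A member was called and 0.223% of all genes were higher. There SLC30A1 had 70.6 ± 8.11 CPM and SLC30A2 3.27 ± 0.838 CPM. The median log2 change over the 9 exporters was 0.10 in ziram and 0.04 in methylmercury, against 0.01 and -0.01 over all genes. In MS275, where 43.2% of all genes were called, 2 exporters were higher (SLC30A2 by 3.03 and SLC30A3 by 2.67 on the log2 scale) and 2 lower (SLC30A5 by a log2 change of -0.56 and SLC30A9 by -0.26). In MPP, where 5.02% of all genes were lower, 2 exporters were lower (SLC30A1, -0.44, and SLC30A9, -0.25).

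Of 11 listed metallothioneins, the zinc-binding proteins, 8 passed the filter on low counts. Of the 11, 8 reached 1 CPM in ziram and 2 in DMSO. Some may therefore have been tested only because of their ziram levels, so the count in ziram is partly set by the filter. By edgeR, 8 of 8 tested genes were higher in ziram, where 0.408% of all genes were higher. The numbers were 4 in methylmercury (0.223% of all genes), 4 in rotenone (2.76%), 2 in MPP (5.77%) and 1 in MS275 (20.1%). Metallothioneins were not called in paraquat or 6-HD. Their summed level was 1290 to 1729 CPM in ziram and 40.8 to 44.7 CPM in methylmercury, against 9.68 to 12 CPM in DMSO. In rotenone it was uneven, 10.8 to 57.6 CPM, with the lowest library inside the range of DMSO. These genes are near-identical copies whose reads may have been split or lost, so the sum is given rather than single genes. In methylmercury SLC39A10 had 260, 265 and 257 CPM, below all DMSO libraries, with a log2 difference of -0.11 ± 0.09 (SE; 95% interval -0.29 to 0.07; edgeR adjusted p = 0.674).

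Of 11 tested factors known to act on zinc importers, 6 were lower in MS275, where 23% of all genes were lower, with a median log2 change of -0.30 against 0.04 over all genes. The largest were NFKB1, a subunit of NF-kB, at -1.24, USF1, a basic helix-loop-helix factor, at -1.08, MTF1 itself at -0.44 and USF2 at -0.40. In MPP, where 5.77% of all genes were higher, 3 were: ATF4, the factor of the integrated stress response, by 0.57, RELA, the partner of NFKB1 in NF-kB, by 0.49 and CSNK2A2, a catalytic subunit of the kinase CK2 that opens ZIP7, by 0.41 on the log2 scale. USF1 was lower in rotenone (-0.35), where 2.76% of all genes were lower, and in ziram none of the 11 was called. Of the proteins known to bind ZIP6 or to resemble ZIP10, NCAM1 and the prion protein gene PRNP, PRNP was lower in MS275 (log2 -0.54) and in rotenone (-0.41), and NCAM1 was higher in MPP than in paraquat (0.52).

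Among 9 genes of iron and manganese transport, the other metals of SLC39A14, 2 were higher and 4 lower in MS275, where 20.1% of all genes were higher and 23% lower. The iron reductase STEAP3 (log2 1.06) and the iron exporter SLC40A1 (1.05) were higher, and the transferrin receptor TFRC (-0.78) and the iron importer SLC11A2 (-0.66) lower. TFRC was higher in MPP (log2 0.45), where 5.77% of all genes were higher, and in ziram (0.54), where 0.408% were. In rotenone, where SLC39A14 was higher, none of the 9 was called.

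Marker lists were read in the same groups, of which MS275 had 20.1% of all genes higher and 23% lower. In rotenone 2.76% of all genes were higher and 2.76% lower. Dopaminergic markers were higher for 6 of 9 tested genes and lower for 1 in MS275 (median log2 change 0.75), and higher for 1 in rotenone. Their summed level was 1043 to 1256 CPM in MS275 and 900 to 1245 CPM in rotenone, against 654 to 773 CPM in DMSO, and LMX1A and FOXA2 were at 0 counts in all 3 groups. In MS275, 5 of 8 neural precursor markers were higher, with a summed level of 235 to 261 CPM against 148 to 177 CPM in DMSO, and 6 of 9 tested astrocyte and oligodendrocyte markers were higher, with 201 to 233 CPM against 181 to 196 CPM; MOG and SOX10 were at 0 counts in both groups. Cycling cell markers summed to 526 to 569 CPM in MS275 and 696 to 741 CPM in DMSO, and 6 of 10 were lower. In rotenone, precursor markers summed to 234 to 268 CPM, with 2 of 8 higher and 1 lower. Their median log2 change was -0.12 in rotenone and 0.68 in MS275, so the raised sum in rotenone was not a rise of most of these markers. The part of these shifts in the changes of SLC39A genes was not tested. In ziram 1 of 9 dopaminergic markers was higher, where 0.408% of all genes were, and no gene of the precursor, glial and cycling lists was called by edgeR. In MPP, where 5.77% of all genes were higher and 5.02% lower, 2 of 9 dopaminergic markers were lower. Of 8 precursor markers, 1 was higher and 1 lower in MPP, and 1 glial and 1 pan-neuronal marker were higher. The part of these calls in the SLC39A changes was not tested either.

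The genes whose log2 CPM was most like that of SLC39A14 over the 24 libraries were sought among 11095 genes of at least 5 CPM. They were SLAIN1, LDB3 and CDO1, each with a Pearson r of 0.96. The MS275 libraries stand apart from the rest for SLC39A14, and over the 21 libraries without MS275 r was 0.86, 0.86 and 0.84. These values describe libraries that share their depth and treatment, and they carry no test.

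The called changes against DMSO were recomputed under other scalings, tools and filters and with each library left out. The 5 calls in MS275 and the call of SLC39A10 in ziram held under all 9 alternatives and with any of the 6 libraries left out. The call of SLC39A14 in MPP held likewise, that in rotenone held except when rotenone and DMSO were fitted alone, and SLC39A13 in MPP was the exception described above.

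**Figure D5:**
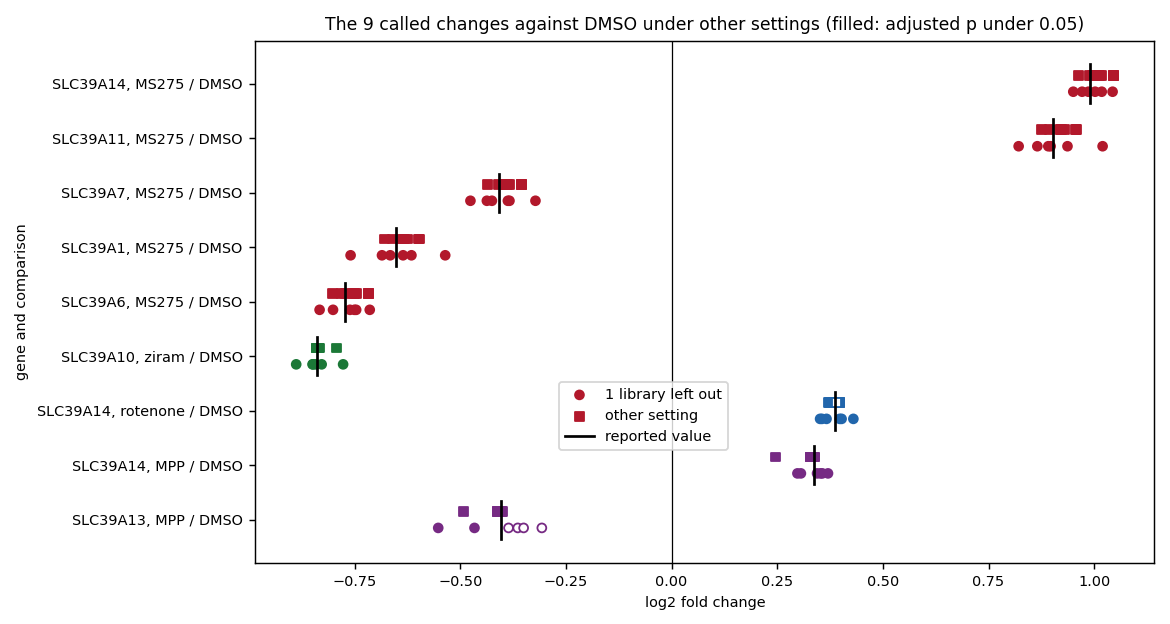
Log2 fold change of the 9 called differences against DMSO: the reported value (line), the value under each other setting (squares) and with 1 library left out (circles); filled marks have an adjusted p under 0.05. Open circles occur for SLC39A13 in MPP, and the open square of SLC39A14 in rotenone is the fit of the 2 groups alone (adjusted p = 0.0645).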

How the data were processed

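RNA sequencing of 24 libraries (8 groups of 3) was read from the deposited raw counts per gene. Per the submitters' processing notes, the authors used STAR, HTSeq and DESeq with GRCh38; the sources used here give no versions, annotation or strand setting. The authors also deposited a table of normalized signal, of which 100% of values came back as whole reads within 0.01 after scaling by 1 factor per library, all equal to the counts; 0 columns had no sample, and 266 rows without a gene symbol held 0.00492% of the counts.

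Counts were fitted with edgeR 4.0.16 in R 4.3.3 (TMM, default low-count filter, 1 coefficient per group over all 24 libraries, 16 residual degrees of freedom), and adjusted p-values cover 18852 genes. The SE is the absolute log2 change divided by the square root of F. Exon lengths came from GENCODE 29, which matched 57447 genes by identifier, and promoter sequences from RefSeq. The procedure was tested on simulated data first. DESeq2 1.42.0, limma 3.58.1 (voom), other scalings (library totals, RLE, the authors' deposited factors), no filter, no mitochondrial genes, the 2 groups alone, a replicate block and each library left out were the alternatives; fitted with the deposited factors, the recovered reads called 8029 genes in MS275. Figures were drawn with Python 3.11.15, pandas 2.3.3, numpy 2.4.6 and matplotlib 3.10.9.

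All 10 members are named; from each list, up to 4 called genes of largest change, and for SLC39A14, called in most comparisons, the 3 genes most like it. The members and lists were chosen with earlier results of these data known.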

Additional observations from a re-analysis of the deposited data

How the results depend on the processing

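No called change of an SLC39A gene turned its direction under any setting. Of the members' changes, 853 kept their direction and their side of the threshold under other scalings, tools, filters and fits, 4 lost their call, 8 gained 1, and 15 that were never called changed sign; with 1 library left out these numbers were 833, 14, 4 and 49. Counts of members called moved by over 1.5 times in few places: with DESeq2 to 2 in rotenone (from 1) and to 4 for ziram against the other toxicants (from 2), with library totals to 1 for MPP against paraquat (from 2), and with the 2 groups fitted alone to 0 in rotenone (from 1) and 2 in ziram (from 1). With 1 library left out, members called ranged from 1 to 2 in MPP, 0 to 2 for MPP against paraquat and 1 to 3 for ziram against the other toxicants. In methylmercury the split over all genes was 42 higher and 12 lower, and 125 and 124 with no filter; in 6-HD it was 2 and 0, and 7 and 1 with DESeq2 or 13 and 5 with no filter. Counts over all genes moved more. With DESeq2 they were 8 in 6-HD (reported value 2), 310 in methylmercury (54), 184 in ziram (100) and 1158 for ziram against the other toxicants (763), which limma-voom put at 1445. With no filter on low counts they were 18 in 6-HD, 249 in methylmercury, 3 in paraquat (0) and 160 in ziram. With the 2 groups fitted alone they were 1 in 6-HD, 3983 in MPP (2034), 3541 for MPP against paraquat (2070), 211 in rotenone (1041) and 586 in ziram. With 1 library left out they ranged from 0 to 2 in 6-HD, 1142 to 1430 in MPP, 1157 to 1476 for MPP against paraquat, 7 to 170 in methylmercury, 483 to 1616 in rotenone, 40 to 74 in ziram and 226 to 1139 for ziram against the other toxicants; the cause was not tested, and each such fit has fewer samples.

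Libraries with the same replicate number showed no shared deviation over all tested genes: 0 of 24 pairs had a correlation over 0.1 (range -0.06 to 0.07). This gives no sign that the numbers pair samples but cannot exclude it, since counting noise in low genes also lowers such correlations. A replicate block put the genes called in 6-HD at 0 instead of 2, left the 5 members called in MS275 and the 1 in ziram at 5 and 1, and gave SLC39A10 in ziram a log2 change of -0.84. No scaling moved the median change of all genes by over 0.1 on the log2 scale. Depth limits SLC39A4 most, with 9 to 139 counts per library, and then SLC39A8, with 83 to 423.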
